A study of Mus musculus with 18 samples.

Results

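Ribosomes caught with harringtonine were counted per gene in mouse erythroblasts, the nucleated precursors of red blood cells, after tunicamycin or without it. The members are all 4613 genes named at the kept harringtonine positions of both strands, with the reads of a gene's positions summed, and 6 of the 18 samples of the series carry this readout. The tunicamycin group (3 libraries) had received 2.5 ug/ml tunicamycin for 1.5 h and the untreated group (3 libraries) had not; both were given harringtonine at 2 ug/ml before harvest. Cells of both groups came from fetal livers, carried the strain label FVB/n x C57BL/6 and the genotype label Trp53 -/-, and grew in StemPro with erythropoietin (0.5 U/ml), stem cell factor supernatant (1%) and dexamethasone (1 nM). The other libraries, cycloheximide footprints (100 ug/ml for 5 min) and total RNA with 3 samples of each treatment, are used here only where a harringtonine value is set beside them. Whether libraries of 1 treatment come from different cultures or animals is not stated in the labels, so a p measures only the spread between these samples, which may be technical.

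Harringtonine stops ribosomes that have just joined at a start codon while those already elongating run off, so footprints gather at start sites. Tunicamycin inhibits the attachment of N-linked sugars to proteins entering the endoplasmic reticulum (ER). Unfolded protein there activates the kinase PERK, which phosphorylates the initiation factor eIF2 and lowers delivery of initiator tRNA to ribosomes. Most mRNAs are then translated less, while mRNAs with short upstream open reading frames (uORFs), such as that of the transcription factor ATF4, are translated more. The comparison asks which genes had more or fewer initiating ribosomes, as a share of all harringtonine reads, under tunicamycin; eIF2 phosphorylation itself was not measured in the files used here. Shares cannot show a change common to all mRNAs.

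Each position is 1 base of the genome, and where it lies relative to a start codon can be read for genes whose position falls inside a RefSeq start window of GRCm38.p6. Such a window surrounds an annotated transcript start, so only genes whose highest position lies close to one could be read. Of the 4613 genes, 407 had at least 23 bases of such a window after their highest position. ATG started 12 or 13 bases on in 129 (31.7%), against 2.47% over the bases that follow the annotated start in all 32851 windows. Whether this share holds for the other genes was not tested. The search read only the strand that runs with the gene, and only the letters ATG. In the same genes 80 had it at 13 bases and 49 at 12 bases, and no other distance from 5 to 20 bases had more than 21. The sequences below start at the counted position and run with the gene, and capitals mark that ATG; they are shown as examples of counted positions just before a start codon in histone, mitochondrial ribosome and red-cell membrane genes. Of 13 core histone genes with as much window, 6 had ATG at 12 or 13 bases, 5 had the first ATG at another distance (7 bases in Hist1h3i) and 2 had no ATG in the window.
Hist1h2ag, chr13:22042911-22042940, minus strand: tttaatctttacaATGtctggacgcggcaa
Hist1h2an, chr13:21787202-21787231, minus strand: ctttttgtttagaATGtctggacgcggcaa
Hist1h2be, chr13:23585940-23585969, minus strand: aagagatctgaagATGcctgagccagccaa
Mrpl50, chr4:49521037-49521066, minus strand: ttgcttgtcgagaATGgcggcgctgatcgt
Rhag, chr17:40811163-40811192, plus strand: ctctgctgcagtcATGaggttcaaattccc
From the ATG on, the printed bases of Hist1h2ag and Hist1h2an are the same, while the bases before it differ. Reads in the shared part cannot be given to 1 of such histone copies with certainty, and the sources used here do not say how reads matching several copies were placed.

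The libraries held 558625 to 648169 reads at kept positions under tunicamycin and 446561 to 523868 in untreated cells. Every position held at least 20 reads over the 3 libraries of 1 treatment, so the totals cover those positions and are not the sequencing depth. Of the 9025 positions, 6828 reached that sum in both treatments, 1597 under tunicamycin alone and 600 in untreated cells alone. Genes had from 1 position (2278 genes) to 20 (Hsp90aa1), with a median of 2. The markers written for erythroblasts had kept positions for 11 of 12 entries, led by the beta-globin gene Hbb-bs, and those for macrophages, granulocytes and monocytes, megakaryocytes, and endothelium and stroma for 0. The lists for mast cells and hepatocytes had 1 gene each, neither deep enough to test, which summed to 33.5 ± 23.4 against 4.26 ± 2.41 CPM and to 12.2 ± 3.26 against 21.4 ± 6.30 CPM (tunicamycin, then untreated; SD, n = 3 each). CPM are a gene's reads scaled to 1000000 kept-position reads per library.

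Of the 4613 genes, 3681 passed the filter on low counts and were tested. A single gene, the histone H4 gene Hist1h4k, passed at an adjusted p under 0.05 (0.0272% of genes tested), and 0 fell. At an unadjusted p under 0.05 there were 133 genes (3.61%), 74 with higher and 59 with lower values under tunicamycin, and DESeq2 called 2, Hist1h4k and Cd24a. The median log2 change was -0.01, and the middle 90% of genes lay between -0.57 and 0.58. The typical standard error of a gene's log2 change was 0.33 (median; quartiles 0.27 and 0.41), against 0.13 for coding-sequence (CDS) footprints and 0.08 for RNA. Libraries of 1 treatment varied around a gene's mean by 25.1% beyond counting noise, against 9.38% for CDS footprints and 7.28% for RNA. Of 9265 genes tested in CDS footprints 239 passed (2.58%), and of 10643 in RNA 16 passed (0.15%), or 410 in RNA with the replicate number as a block. Leaving out 1 library moved these counts to between 58 (without untreated library 2) and 431 (without tunicamycin library 1) in CDS footprints and to between 3 (without tunicamycin library 2 or 3 or untreated library 2 or 3) and 26 (without tunicamycin library 1) in RNA.

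**Figure D1:**
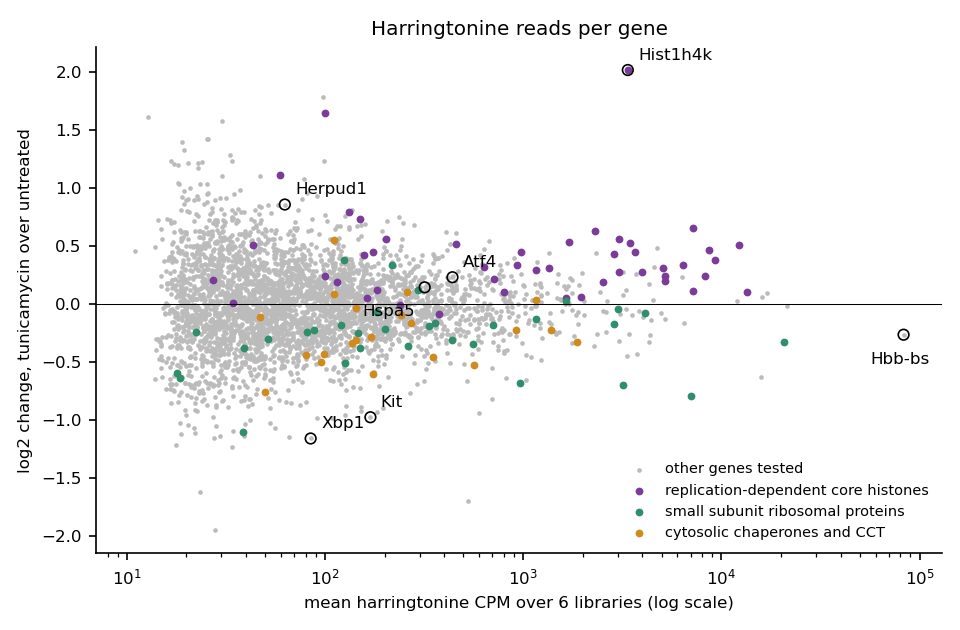
Each point is 1 of the 3681 genes tested, with its mean harringtonine CPM over the 6 libraries (log scale) against its log2 change, tunicamycin over untreated; 3 gene lists are coloured and 7 genes are circled and named. Hist1h4k at 2.02 is the gene that passed, and most core histone genes lie above 0 at all levels.

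Hist1h4k encodes histone H4, a core protein of the nucleosome made mainly while DNA is replicated. It had 4841, 3598 and 7812 CPM in the tunicamycin libraries, against 1672, 1106 and 1213 CPM in the untreated libraries. The lowest tunicamycin library stood far above the highest untreated one. The rise was 2.02 on the log2 scale (SE 0.28, 95% interval 1.42 to 2.62, edgeR adjusted p = 0.0159). Its reads all came from 1 position, base 21750253 of chromosome 13 on the minus strand. It lies 300 bases into the 409 bases that RefSeq annotates for this gene (H4c12). No start codon was read there, so whether these reads mark initiation is not known. The call was lost without untreated library 2 (1.89, adjusted p = 0.474) and without untreated library 3 (1.94, 0.580). CDS footprints on the gene had a log2 change of 0.11 ± 0.10 (SE, edgeR adjusted p = 0.631) and its RNA one of -0.54 ± 0.24 (0.384), so neither passed.

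A second H4 gene, Hist1h4m, held its 4 positions at 290 to 340 bases into a gene of 405 bases. It had 66.3, 78.8 and 308 CPM under tunicamycin and 30.5, 47.0 and 66.5 CPM in untreated cells. Its lowest tunicamycin library fell just below the highest untreated one, and 1 tunicamycin library held most of the reads (log2 1.65 ± 0.52, edgeR adjusted p = 0.998). Without tunicamycin library 3 the log2 change was 0.58. The positions at 291, 339 and 340 bases were kept through tunicamycin alone, so part of the summed difference was built into that choice. With the highest position alone, at 290 bases and kept through both treatments, the log2 change was 1.92 ± 0.54 (SE) and did not pass.

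Most replication-dependent genes of the core histones H2A, H2B, H3 and H4 had log2 changes above 0. Of 51 such genes with a kept position, 47 were tested, 1 of them the annotated pseudogene Hist3h2bb-ps; 45 had a log2 change above 0 and 2 below, against 48.3% above 0 for all genes. Tunicamycin and untreated libraries did not overlap for 16 of the 47 and all 16 were higher (5.22% of all genes tested), and 13 had an unadjusted p under 0.05 with higher values (2.01% of all genes tested). The median log2 change was 0.32, against -0.01 for all genes tested, and Hist1h4k alone passed. Together the core histones took 142244, 139249 and 164353 CPM under tunicamycin, against 118442, 107255 and 115959 CPM in untreated cells. These sums are 148615 ± 13711 and 113885 ± 5875 CPM (SD, n = 3 each), and the groups do not overlap. By family the median was 0.38 for H2A (11 genes), 0.45 for H2B (15), 0.19 for H3 (10) and 0.28 for H4 (11), and every tested H2A, H2B and H4 gene was above 0.

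Hist1h2ag, an H2A gene whose counted position lies before its start codon in the sequence above, had 9516, 10857 and 9922 CPM under tunicamycin and 7933, 6884 and 6943 CPM in untreated cells. The groups did not overlap, and the log2 change of 0.47 ± 0.17 did not pass (SE, edgeR adjusted p = 0.998). Hist1h2an, a second H2A gene, had 3582, 3970 and 4761 CPM under tunicamycin against 2991, 3001 and 2486 CPM in untreated cells, again without overlap (0.53 ± 0.20). Hist1h3i encodes histone H3 and had 3632, 3015 and 4299 CPM under tunicamycin and 2243, 2221 and 2926 CPM in untreated cells (0.56 ± 0.21). Hist1h2be, an H2B gene, had 11270, 11410 and 20975 CPM against 9000, 11297 and 10083 CPM in untreated cells, with the third tunicamycin library far above the rest (0.51 ± 0.24, or 0.14 without that library). None of these genes passed, each at an edgeR adjusted p of 0.998.

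**Figure D2:**
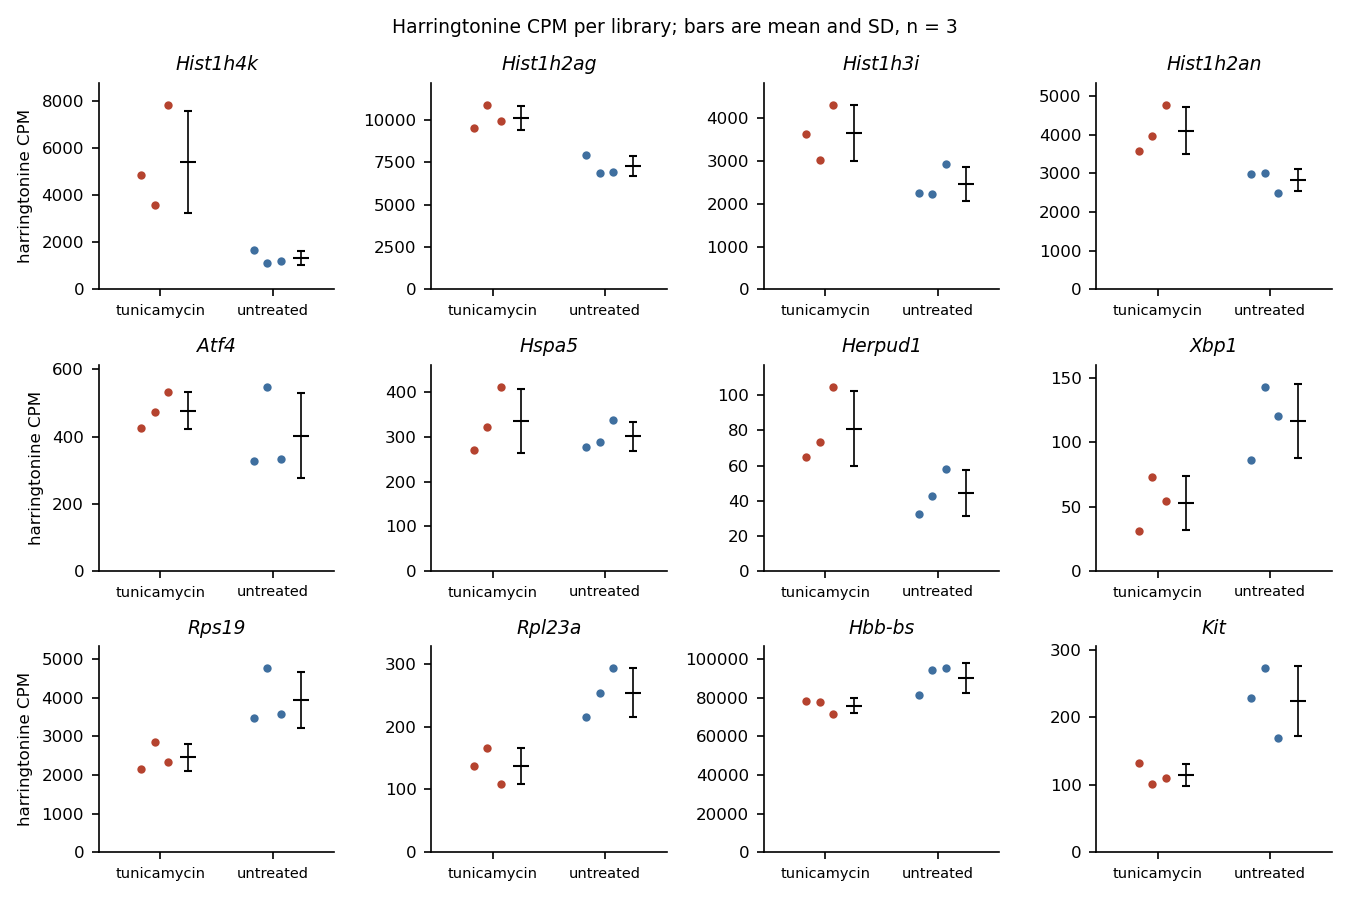
Harringtonine CPM of 12 genes in each of the 3 tunicamycin libraries (left) and 3 untreated libraries (right), with the mean and SD beside the points; each panel has its own axis from 0. Hist1h4k, Hist1h2ag, Hist1h3i, Hist1h2an and Herpud1 have no tunicamycin point below an untreated one, and Xbp1, Rps19, Rpl23a, Hbb-bs and Kit no tunicamycin point above one.

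Core histone positions were split by their distance from an annotated start in RefSeq. Positions inside a start window were placed from the start of that window's transcript, and all others from the start of the annotated gene. A position past the window of a later start in its gene could thus count as distant. The 61 positions under 100 bases (41 genes) summed to 117263, 116647 and 135211 CPM under tunicamycin, against 100014, 92359 and 98923 CPM in untreated cells, a ratio of means of 1.27. The 34 positions 100 or more bases in (20 genes) summed to 24867, 22477 and 28838 CPM under tunicamycin, against 18346, 14840 and 16770 CPM in untreated cells, a ratio of 1.52, or 1.30 without Hist1h4k. Neither set of sums overlaps between the treatments. The distant set holds positions of Hist1h2bb, Hist1h2bg, Hist1h4m, Hist2h3c2 and Hist3h2bb-ps kept through tunicamycin alone, each with at most 26.5 CPM on average there. The position of Hist1h2ak was kept through untreated cells alone. Part of the difference at such positions was built into their choice. Beside Hist1h4k, most of the distant sum came from 1 position each of Hist1h2ae and Hist1h3f. The first lies 108 bases in (mean 10490 CPM under tunicamycin, 7999 in untreated cells) and the second 426 bases in (7200 and 5670 CPM). With the positions 100 or more bases in left out, an alternative chosen after seeing where the position of Hist1h4k lies, 39 core histone genes were tested, 36 were above 0, the median was 0.29 and 0 genes passed over the whole table. The codons at the more distant positions were not read, since a genome sequence was not used here. Whether those positions mark start codons is therefore not known.

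**Figure D3:**
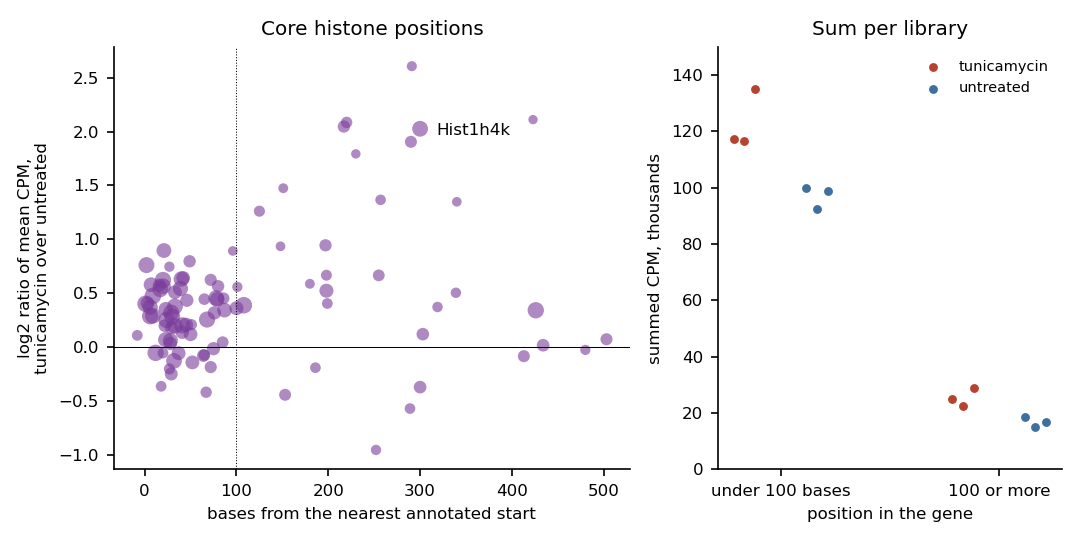
Left, each core histone position by its distance in bases from an annotated start and the log2 ratio of its mean CPM, tunicamycin over untreated. Distances are from the start of the position's start window or, outside such windows, from the start of the gene. Point size grows with the log of the reads and the dotted line marks 100 bases. Right, summed CPM (axis in units of 1000) of the positions on either side of that line in each library, higher in all 3 tunicamycin libraries than in any untreated one on both sides.

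In CDS footprints and in RNA the same genes had medians of opposite sign. Of 44 core histone genes tested in both harringtonine reads and CDS footprints, 29 rose in CDS footprints and 0 fell, against 117 and 32 of the 3516 genes tested in both; of all 9265 genes tested in CDS footprints 1.78% rose and 0.799% fell. These histones had a median log2 change of 0.77 in CDS footprints, against 0.03 for the genes tested in both. The count of 29 was 12 without untreated library 2, 17 without tunicamycin library 3 and 23 to 34 with any other single library left out. In RNA 35 of 38 had a log2 change below 0, the median was -0.52 against -0.00 for the 3580 genes tested in both, and 0 passed. With the replicate block that median was -0.31. By DESeq2 0 of these histone genes received an adjusted p in RNA. Hist1h2ag rose by 1.50 ± 0.17 in CDS footprints (SE, edgeR adjusted p = 0.000197). Hist1h3i rose by 0.77 ± 0.16 (0.0196), a call lost without tunicamycin library 3 (adjusted p = 0.0905), untreated library 1 (0.0572) or untreated library 2 (0.129), and by DESeq2 (0.106). Their RNA log2 changes were -0.50 ± 0.26 and -0.66 ± 0.34 and did not pass. The median SE over all genes tested in RNA was 0.08, so the RNA of these histone genes was measured less precisely. RNA of these genes lacks the poly(A) tail of other mRNAs, and whether the RNA libraries took in such transcripts is not stated in the labels.

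Linker histones, which bind the DNA between nucleosomes, and polyadenylated replacement histones had medians near 0. Of 6 linker histone genes 4 were above 0 (median 0.07), and Hist1h1a was the one without overlap, at 423, 510 and 726 CPM under tunicamycin against 321, 349 and 407 CPM in untreated cells (0.62 ± 0.25 SE, edgeR adjusted p = 0.998). Hist1h1d, among the 5 genes with the most harringtonine reads, had 16444 ± 2989 CPM under tunicamycin and 15604 ± 1989 CPM in untreated cells (SD, n = 3 each), with overlap. The 7 replacement histones had a median of -0.06, with 2 above 0.

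Genes listed for uORFs, among them Atf4, Odc1, Azin1 and Eif5, gave no call in harringtonine reads. Of 12 mRNAs listed for translation through uORFs that had a kept position, 11 were tested, 5 were above 0 and 6 below, the median was -0.03 and 0 passed. Libraries of the treatments overlapped for each of them, and 4 of the 11 rose in CDS footprints, against the 117 of 3516 genes tested in both and 1.78% of all genes tested in CDS footprints.

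Atf4, which encodes the central transcription factor of the response, had 424, 474 and 533 CPM under tunicamycin, against 326, 549 and 332 CPM in untreated cells. Untreated library 2 was the highest of all 6, and the others from untreated cells were the lowest (log2 0.23 ± 0.26 SE, 95% interval -0.32 to 0.79, edgeR adjusted p = 0.998). Its 3 positions lie 484, 485 and 1050 bases into the annotated gene on chromosome 15. CDS footprints of Atf4 rose by 2.18 ± 0.11 (edgeR adjusted p = 2.33e-08) and its RNA had a log2 change of 0.16 ± 0.07 (0.401). The interval of the harringtonine change does not reach the footprint change, but the footprint value covers the coding sequence alone. The harringtonine value sums all 3 positions. The position at 1050 bases held 11.1% of its reads under tunicamycin and 10.4% in untreated cells. Which start codon each position marks was not read, and whether the readouts differ was not tested.

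Ifrd1, a regulator whose mRNA carries a uORF, had 67 reads in all, at 9.26, 28.6 and 28.8 CPM under tunicamycin and 11.5, 13.4 and 33.2 CPM in untreated cells. It held 2 positions. The one 183 bases into the gene had 28 reads under tunicamycin and 6 in untreated cells and was kept through tunicamycin alone, while the one 28 bases in had 11 and 22 and was kept through untreated cells alone. Its summed log2 change was 0.18 ± 0.54 (SE, edgeR adjusted p = 0.998), and its CDS footprints rose by 0.93 ± 0.10 (0.000197). Pnrc2, a coactivator involved in mRNA decay, had 543, 644 and 792 CPM under tunicamycin against 683, 846 and 993 CPM in untreated cells. Its harringtonine log2 change was -0.36 ± 0.24 and did not pass, and its CDS footprints rose by 0.99 ± 0.16 (edgeR adjusted p = 0.00472). Ppp1r15b, a subunit of the phosphatase that reverses eIF2 phosphorylation, had 22.8 ± 12.3 and 23.2 ± 4.65 CPM (tunicamycin, then untreated; SD, n = 3 each; log2 -0.03 ± 0.46 SE). Eprs, a tRNA synthetase gene of the list, had 525, 818 and 787 CPM under tunicamycin against 475, 1332 and 800 CPM in untreated cells (-0.31 ± 0.33).

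Some stress genes were too thin to test. Chac1, a glutathione-degrading enzyme and ATF4 target, had 11, 5 and 10 reads under tunicamycin and 4, 0 and 4 reads in untreated cells, at 1 position. Ibtk, whose mRNA is also controlled by uORFs, had 9, 4 and 8 reads under tunicamycin and 2, 2 and 1 in untreated cells, also at 1 position. Both genes were kept through tunicamycin alone, so part of the difference was built into the choice of positions. Across all genes, 566 had every position kept through tunicamycin alone, of which 73 were tested, and 146 through untreated cells alone, of which 7 were tested. Ddit3, Ppp1r15a and Slc35a4 had 0 kept positions.

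Targets of ATF4 and genes for protein folding in the ER gave no call in either direction. Among ATF4 targets 14 had a kept position and 11 were tested, of which 6 were above 0 and 5 below (median 0.07). Slc7a1, an amino acid transporter gene, had the smallest p of them, at 194, 118 and 96.5 CPM under tunicamycin and 107, 101 and 83.1 CPM in untreated cells (0.48 ± 0.30 SE, edgeR adjusted p = 0.998). Without tunicamycin library 1 its log2 change was 0.13. The 21 tested ER chaperone and degradation genes had 10 above 0 and 11 below (median -0.01).

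Herpud1, a component of ER-associated degradation, had 64.8, 73.4 and 105 CPM under tunicamycin, against 32.5, 42.5 and 58.1 CPM in untreated cells. Every tunicamycin library was above every untreated one, and the log2 change of 0.86 ± 0.33 did not pass (SE, edgeR adjusted p = 0.998). Its RNA rose by 1.36 ± 0.09 (5.93e-05) and its CDS footprints by 0.72 ± 0.14 (0.0160), the footprint call being lost without tunicamycin library 2 (0.0662) or 3 (0.108) or untreated library 2 (0.0998). Hspa5, the ER chaperone BiP, had 272, 322 and 413 CPM under tunicamycin and 277, 289 and 339 CPM in untreated cells, which overlap (0.15 ± 0.24). Its RNA rose by 0.78 ± 0.08 (edgeR adjusted p = 0.00405).

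Xbp1, a transcription factor of the unfolded protein response, had lower values. They were 30.9, 73.4 and 54.2 CPM under tunicamycin, against 85.9, 143 and 120 CPM in untreated cells, so that every tunicamycin library was below every untreated one. The log2 change of -1.16 ± 0.34 did not pass (SE, edgeR adjusted p = 0.998). Both positions lie deep in the gene, 4209 and 4210 bases into 5353. CDS footprints of Xbp1 rose by 0.56 ± 0.12 (0.0184), a call lost without tunicamycin library 2 (0.0865) or 3 (0.114) or any 1 untreated library (0.0514 to 0.0690). Its RNA log2 change was 0.35 ± 0.12 (0.316, or 0.0215 with the replicate block). Pdia3, an ER disulfide isomerase gene, had 281 ± 36.8 CPM under tunicamycin and 367 ± 58.2 CPM in untreated cells (SD, n = 3 each; log2 -0.40 ± 0.24 SE).

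**Figure D4:**
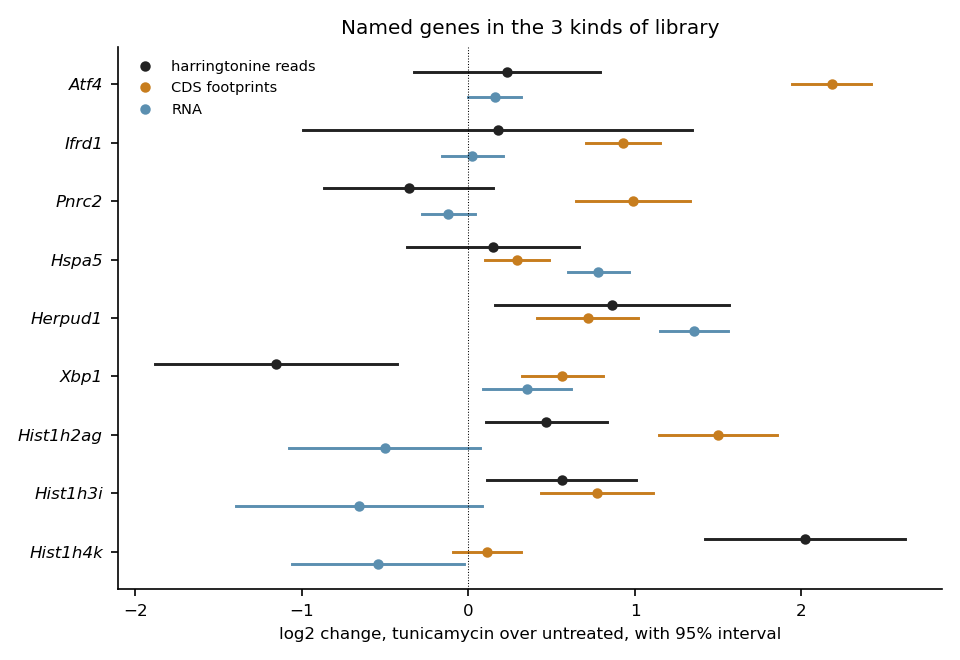
Log2 change (point) with its 95% interval, tunicamycin over untreated, of 9 genes in harringtonine reads, CDS footprints and RNA. The harringtonine value sums all kept positions of a gene. Atf4 has 0.23 in harringtonine reads and 2.18 in CDS footprints, Xbp1 has -1.16 and 0.56, and Hist1h4k has 2.02 and 0.11; differences between the readouts were not tested.

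Ribosomal protein mRNAs, which carry a 5' terminal oligopyrimidine (TOP) start and are among the most translated in a growing cell, lay mostly on the lower side. Of 32 small-subunit genes 28 had a log2 change below 0 and 4 above (51.7% of all genes were below), with a median of -0.24. Without overlap were 3 lower genes and 1 higher, against 3.86% lower and 5.22% higher of all genes, and 4 had an unadjusted p under 0.05 with lower values (1.6% of all genes tested). Their summed reads were 40781, 50678 and 39408 CPM under tunicamycin, against 57102, 51108 and 56819 CPM in untreated cells. Every tunicamycin sum was below every untreated one, with tunicamycin library 2 close to untreated library 2. Of 42 large-subunit genes 28 were below 0 (median -0.12), and their sums of 50225, 51147 and 37758 CPM under tunicamycin overlap those of 62997, 60292 and 47674 CPM in untreated cells. Among these 42 genes 4 were higher and 3 lower without overlap. At an unadjusted p under 0.05, 6 were lower and 1 higher (1.6% and 2.01% of all genes tested). None of the 74 genes passed.

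Rps19, a small-subunit gene mutated in human Diamond-Blackfan anaemia, had 2165, 2855 and 2339 CPM under tunicamycin, against 3470, 4761 and 3587 CPM in untreated cells. The groups did not overlap (-0.70 ± 0.21 SE, edgeR adjusted p = 0.998). Rps15a, at higher level, had 5369, 7202 and 3059 CPM under tunicamycin and 11814, 6772 and 8166 CPM in untreated cells, with overlap (-0.79 ± 0.28). Rps12 had 24.6 ± 2.00 CPM under tunicamycin and 52.7 ± 10.2 CPM in untreated cells (SD, n = 3 each; -1.10 ± 0.34 SE). Rps6, whose protein is a target of growth signalling, was the small-subunit gene with the most reads, at 18439 ± 3675 CPM under tunicamycin and 23006 ± 3107 CPM in untreated cells (-0.33 ± 0.18).

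Rpl23a, a large-subunit gene, was 1 of the 3 genes of the whole table with the smallest p on the lower side. It had 137, 166 and 108 CPM under tunicamycin, against 216, 253 and 293 CPM in untreated cells, without overlap (-0.90 ± 0.25 SE, edgeR adjusted p = 0.998). Rpl28 and Rpl10a had log2 changes of -0.85 ± 0.31 and -0.72 ± 0.28. Rpl6 differed in direction from them, at 150, 170 and 159 CPM under tunicamycin against 91.6, 76.1 and 112 CPM in untreated cells (0.76 ± 0.25). None of them passed, each at an edgeR adjusted p of 0.998.

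Other TOP mRNAs were mixed, with 8 of 18 above 0 (median -0.14). Eif4b, a cofactor of the RNA helicase in initiation, had 38.6, 41.2 and 57.6 CPM under tunicamycin and 15.3, 8.96 and 20.8 CPM in untreated cells, all at neighbouring positions kept through tunicamycin alone (1.58 ± 0.41 SE, edgeR adjusted p = 0.998). Pabpc1, the poly(A)-binding protein gene, had 261, 233 and 107 CPM against 349, 401 and 260 CPM in untreated cells over 11 positions, with the groups barely overlapping (-0.76 ± 0.31). Naca, a nascent-chain binding protein gene, had 34.0 ± 9.71 CPM under tunicamycin and 17.3 ± 2.52 CPM in untreated cells (SD, n = 3 each; 0.96 ± 0.41 SE). The initiation factors as a whole had 18 of 38 above 0 (median -0.02).

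The list of cytosolic chaperones, including the CCT ring that folds actin and tubulin, also holds the mitochondrial Hspa9, Hspd1 and Hspe1. It had 17 of 21 genes below 0, and its median of -0.28 was the lowest of the 26 lists. Its genes summed to 7944, 7655 and 7681 CPM under tunicamycin, against 8641, 10079 and 8315 CPM in untreated cells, without overlap. Of the single genes 2 were lower without overlap, against 3.86% of all genes tested, and 0 passed. Cct5, a CCT subunit gene with 11 positions, had 117, 141 and 161 CPM under tunicamycin and 279, 204 and 147 CPM in untreated cells (-0.60 ± 0.28 SE, edgeR adjusted p = 0.998). Tcp1, a second subunit, had 321, 322 and 252 CPM under tunicamycin and 428, 408 and 382 CPM in untreated cells without overlap (-0.45 ± 0.23). The cytosolic chaperone gene Hsp90aa1 had a log2 change of -0.53 ± 0.26 and the mitochondrial chaperone gene Hspa9 -0.75 ± 0.39. Most of the Cct5 positions lie at least 3800 bases into the gene. Reads more than 1000 bases downstream of a gene's highest position made up 2.29%, 2.62% and 2.66% under tunicamycin and 2.80%, 3.18% and 2.49% in untreated cells, and their part in these results was not tested. With the highest position of each gene alone the list's median was -0.26.

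Groups of red-cell genes had medians between -0.17 for globins and 0.02 for membrane genes. Hbb-bs, the adult beta-globin gene with the most reads of all, had 78191, 77882 and 71506 CPM under tunicamycin, against 81458, 94108 and 95218 CPM in untreated cells. Its groups did not overlap, and its log2 change of -0.26 ± 0.14 did not pass (SE, edgeR adjusted p = 0.998). Hbb-bt, a second adult beta-globin gene, had 6128 ± 503 CPM under tunicamycin and 6825 ± 2452 CPM in untreated cells, and the alpha-globin gene Hba-a1 had 1307 ± 308 and 1464 ± 466 CPM (SD, n = 3 each). The 14 haem and iron genes had a median of -0.08, 16 membrane genes had 9 above 0, and 12 erythroid transcription factors had a median of -0.02. Tfrc, the transferrin receptor gene, had -0.15 ± 0.21, Urod of the haem pathway -0.43 ± 0.27, the membrane gene Ermap -0.29 ± 0.22 and Myc 0.22 ± 0.25.

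Kit, the receptor for the stem cell factor in the medium, had the smallest p on the lower side. It had 133, 102 and 110 CPM under tunicamycin, against 229, 273 and 170 CPM in untreated cells, with every tunicamycin library below every untreated one (-0.97 ± 0.26 SE, edgeR adjusted p = 0.998). The reads came from 7 positions. The one 73 bases into the gene had 65, 28 and 23 reads under tunicamycin and 82, 25 and 41 in untreated cells, and 5 lay at least 70985 bases into the gene, 4 of them kept through untreated cells alone. With the position of most reads alone the log2 change was -0.62 ± 0.43. Scaf4, a gene for an RNA-processing factor, was the third, at 4.63, 17.9 and 11.8 CPM under tunicamycin against 24.8, 78.4 and 29.1 CPM in untreated cells (-1.95 ± 0.57), and both its positions were kept through untreated cells alone.

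The deleted gene of the genotype label, Trp53, had 168, 209 and 223 CPM under tunicamycin and 160, 206 and 245 CPM in untreated cells, at positions 60 and 158 bases into the gene (log2 -0.03 ± 0.25 SE, edgeR adjusted p = 0.998). Reads were thus present in every library, and the labels do not name the deleted part of the gene. The 6 tested p53 targets had 3 above 0 and 3 below (median 0.04).

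Rhag, a red-cell membrane channel gene, and Mrpl50, of the mitochondrial ribosome, whose start codons are printed above, had overlapping groups. Rhag had 603, 564 and 437 CPM under tunicamycin and 653, 694 and 498 CPM in untreated cells (log2 -0.22 ± 0.23 SE, edgeR adjusted p = 0.998). Mrpl50 had 403, 365 and 576 CPM under tunicamycin and 250, 414 and 334 CPM in untreated cells (0.42 ± 0.27).

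The remaining lists had medians between -0.07 and 0.17, with 0 genes passing. Oxidative phosphorylation genes were above 0 in 34 of 58 (median 0.07). Cox7a2 had 84.9, 48.3 and 69.4 CPM under tunicamycin and 47.7, 33.6 and 35.3 CPM in untreated cells (0.78 ± 0.33 SE), and Ndufb3 had 455, 465 and 327 CPM against 683, 508 and 577 CPM in untreated cells (-0.51 ± 0.23), each an electron transport gene without overlap and at an edgeR adjusted p of 0.998. Psma7, of the proteasome core, had 46.3, 46.5 and 49.1 CPM under tunicamycin and 22.9, 13.4 and 20.8 CPM in untreated cells at positions kept through tunicamycin alone (1.28 ± 0.36), in a list with a median of 0.05 over 36 genes. Txnip, a thioredoxin inhibitor, had 213, 222 and 339 CPM under tunicamycin and 132, 123 and 212 CPM in untreated cells without overlap (0.72 ± 0.29). Among 7 immediate early genes (median 0.17), Ier2 had 0.40 ± 0.23 and Ier5 -1.07 ± 0.38. Medians were -0.06 for 17 G2/M genes, -0.05 for 36 splicing factors, -0.04 for 45 mitochondrial ribosomal proteins, 0.01 for 19 tRNA synthetases, -0.07 for 18 cholesterol genes, 0.00 for 19 redox genes and -0.00 for 9 glycolytic genes. The most read genes beside those above were Btf3, a nascent-chain binding protein gene, at 21480 ± 1483 CPM under tunicamycin and 21534 ± 3431 CPM in untreated cells, and the metallothionein gene Mt1, at 17574 ± 2806 and 16317 ± 1548 CPM (SD, n = 3 each).

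**Figure D5:**
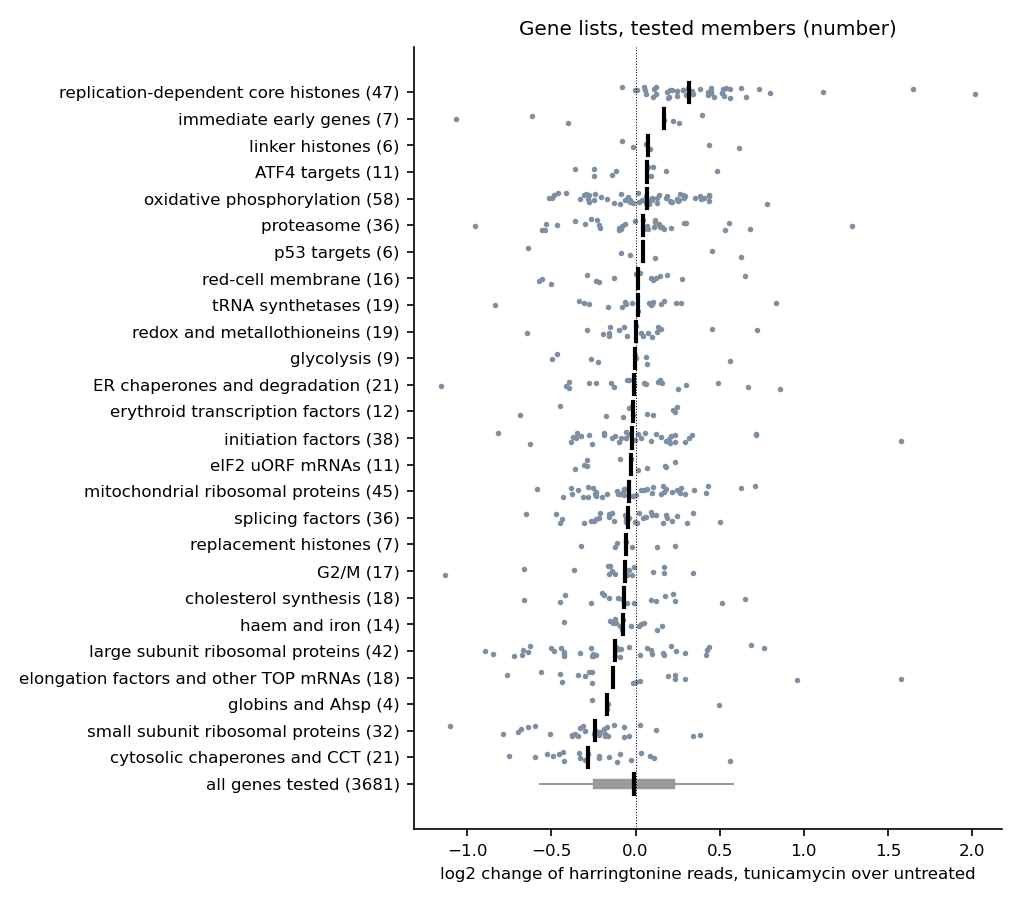
Log2 change of harringtonine reads, tunicamycin over untreated, of each tested member (points) of 26 gene lists, with the list's median (bar) and the number tested; the bottom row gives the median, quartiles and 5th to 95th percentiles of all 3681 genes. The core histone median is 0.32 and that of the cytosolic chaperones -0.28, against -0.01 for all genes.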

How the data were processed

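The authors deposited counts of harringtonine reads at single positions with a gene name, and counts of cycloheximide footprints per feature and of RNA reads per gene, per the file headers. Per the submitters' processing notes, their tools included STAR, HTSeq and edgeR, and builds mm10 and GRCm38 are listed; their settings are not stated there. Kept positions were summed by gene. The quasi-likelihood test of edgeR 4.0.16 (R 4.3.3; TMM scaling; filterByExpr, minimum count 10 and total 15; glmQLFit and glmQLFTest; Benjamini-Hochberg over all genes tested; threshold 0.05) compared the 3 tunicamycin and 3 untreated libraries of each assay. Library totals and precision stand with the results.

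Members, lists and tests were chosen with earlier results of these data known. Named genes were those passing with a mean of at least 50 CPM and no overlap, 12 stress genes, up to 4 members of a list with the smallest p, the 5 most read genes and, where none passed, the 3 with the smallest p; fewer were printed, 1 result is not reported here, and Hist1h2an and Hist1h2be were added for their sequences after values were seen. Symbols matched 4290 RefSeq and 4405 gene-name entries.

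Harringtonine columns give a treatment and a replicate number. The number was used for the replicate block, for correlating same-numbered libraries and to name libraries. Same-numbered RNA deviations correlated at 0.416, 0.312 and 0.191, against at most -0.121, -0.0405 and 0.190 with other numbers. For library 3 these values were nearly equal, and pairing is not stated in the labels. Deviations were taken from the mean of a treatment's libraries, so a positive correlation with 1 library by itself lowers those with the others. Alternatives changed scaling, filter, tool (DESeq2 1.42.0, limma 3.58.1), threshold or positions, or left out 1 library.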

Additional observations from a re-analysis of the deposited data

How the results depend on the processing

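The count of 1 passing gene in harringtonine reads became 0 at an adjusted p under 0.01 and with core histone positions 100 or more bases in left out (added after seeing the data, and by construction without Hist1h4k), 2 by DESeq2 (Hist1h4k and Cd24a), 3 with the replicate block (Hist1h4k, Hist1h4m and Cd24a) and 0 to 2 when 1 library was left out (0 without untreated library 2 or 3; Hist1h4k and Trim24 without untreated library 1). It stayed at 1 under the other alternatives. Hist1h4k stayed above 0 in all 19 alternatives that kept it and passed in 17. Medians over all genes stayed between -0.02 and 0.02. The medians of core histones (0.25 to 0.39), small-subunit (-0.34 to -0.13) and large-subunit ribosomal proteins (-0.26 to -0.01), cytosolic chaperones (-0.38 to -0.18), linker histones (0.03 to 0.16), oxidative phosphorylation genes (0.01 to 0.12), G2/M genes (-0.13 to -0.01) and globins (-0.27 to -0.05) kept their sign in every alternative, and those of the other lists did not.

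Same-numbered deviations in harringtonine reads correlated at 0.481, 0.0922 and 0.170. Tunicamycin library 3 correlated better with an untreated library of another number (0.346), so pairing by number is not shown for these libraries. With the replicate block the log2 change of Hist1h4m was 1.45 (edgeR adjusted p = 0.0413) and that of Cd24a 1.80 (0.000771). The sums of both genes include positions kept through tunicamycin alone, so part of these changes was built into the choice of positions. Calls went with the block to 410 in RNA (16 without it) and 885 in CDS footprints (239 without it). Same-numbered CDS deviations correlated at 0.348, 0.0943 and 0.277, each above those with other numbers (at most -0.0217, 0.0240 and -0.0623). The values with other numbers are not a free reference, since a positive same-numbered value by itself lowers them. Whether the numbers mark shared cultures is not stated in the labels. RNA calls were 122 without a filter, 114 by DESeq2 and 3 to 26 with 1 library left out, and CDS calls were 573 without a filter and 58 to 431 with 1 left out. The cause was not tested.

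Of the 54 genes with alternatives, 11 changed sign in at least 1 of them in harringtonine reads. With 1 library left out, their log2 changes ran from -0.10 to 0.17 for Hist1h1d, -0.092 to 0.78 for Ifrd1, -0.57 to 0.19 for Ppp1r15b, -0.59 to 0.14 for Eprs, -0.039 to 0.28 for Hspa5, -0.17 to 0.10 for Trp53, -0.31 to 0.15 for Hbb-bt, -0.33 to 0.13 for Hba-a1, -0.13 to 0.11 for Btf3, -0.013 to 0.21 for Mt1 and -0.0044 to 0.48 for Myc. For Ifrd1 RNA they ran from -0.043 to 0.11. With the highest position of each gene alone, Eprs was at 0.25, Trp53 at 0.22 and Btf3 at 0.018.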

Other observations

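Cd24a, a cell-surface glycoprotein gene of maturing blood cells, was singled out after its values were seen, as the gene with the second smallest adjusted p. It had 123, 115 and 217 CPM under tunicamycin, against 51.5, 20.2 and 58.1 CPM in untreated cells, and every tunicamycin library was above every untreated one. Its log2 change of 1.79 ± 0.37 did not pass by edgeR (SE, adjusted p = 0.530) and passed by DESeq2 (adjusted p = 0.0252). Of its 4 positions, 3 were kept through tunicamycin alone, and with positions that reached 20 reads in both treatments the log2 change was 0.55 ± 0.59.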
